A study of Mus musculus with 8 samples.

Results

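The genes described here are the G protein-coupled receptors that carry the mouse symbols Gpr, Gprc, Adgr, Lpar, S1pr, P2ry, Adora, Adra, Adrb, Chrm, Htr1, Htr2, F2r, Ptgir, Ptgfr, Bdkrb, Cnr and Ackr: orphan, adhesion, lipid, amine, purine, protease-activated, kinin and atypical chemokine receptors. They were chosen by symbol and by the total of their reads over all 8 libraries, which had to be at least 1. That total does not distinguish the groups, but the set of symbols was chosen with earlier results of these data known. Of 22274 genes in the deposited table, 168 matched by name and 160 were kept as members. Just inside the limit, 6 members had 1 read each, among them Adra2c, Chrm5, Htr2c, Gpr119 and Gpr82, and just outside it Adgrf3, Gpr101, Gpr12, Gpr142, Gpr25, Gpr33, Gpr6 and Htr1a had 0 reads, which allows up to 0.0144 CPM (counts scaled to a common library size) over the 207673662 counts of all libraries. The name rule also took 10 rows that are not plasma membrane receptors, among them Ptgfrn, Cnrip1, Gpr89, Gpr107, Gpr108, Gpr137 and Gpr180, and these are kept apart below.

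The study asked how raised IRF7, an interferon regulatory factor, alters mouse primary cardiac fibroblasts under TGF-β. All 8 cultures received 5 ng/ml TGF-β for 24 h, so no untreated cells enter the comparison. The 4 control libraries are labelled GFP and carry a control virus, and the other 4 are labelled OEIRF7 and carry an IRF7 virus, which the paper names as an adenovirus and the series description as an adeno-associated virus. The methods give a C57BL/6 J background for the mouse lines of the study without tying it to these cultures, and the age and number of mice and the separation of the 8 cultures are not given in the sources used here, so the p-values measure the spread between these libraries, which may be technical.

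Mouse Irf7 was at 107, 147, 92.0 and 126 CPM in GFP libraries 1 to 4 and at 14.9, 14.5, 14.9 and 16.4 CPM in the libraries labelled OEIRF7, a log2 fold change of -2.96 (SE 0.12, adjusted p = 7.72e-11). It was thus lower under the overexpression label. The reagent list of the study names a human IRF7 construct, whose reads need not be counted as mouse Irf7, so this row does not check the labels. Library totals ranged from 24454801 to 28658826 counts, and OEIRF7 replicate 3 differed more from its group than the other libraries did from theirs. Of 10 fibroblast markers 2 rose and 6 fell, where 29.0% and 29.9% of all tested genes did. Their summed FPKM (fragments scaled for gene length and library size) was 4195 to 4282 in the GFP libraries and 3996 to 4219 in those labelled OEIRF7. The 8 cardiomyocyte markers summed to 8.82 to 12.3 FPKM against 6.86 to 9.27 FPKM, nearly all of it from Tnnt2, the one that was tested, which fell by 0.54 (SE 0.11, adjusted p = 0.000575), while Myh6 and Myh7 did not exceed 0.114 CPM in any library.

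G protein-coupled receptors cross the membrane with a bundle of helices and pass the binding of an outside ligand to heterotrimeric G proteins, which act on adenylyl cyclase, phospholipase C beta or RhoGEFs. RGS proteins speed the hydrolysis of GTP on the G protein, and receptor kinases and arrestins silence the receptor itself. In heart fibroblasts such receptors read thrombin, kinins, lysophospholipids, nucleotides, catecholamines and serotonin, and several of them are known to act on contraction, collagen production or proliferation.

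The sequences around the start sites of 6 members carry the contrast between the largest rise, the largest fall and members that hold the letters of known regulatory elements. They were taken from RefSeq windows on GRCm38.p6 that run from 250 bases before to 50 bases after a start site, and 120 of the 160 members matched such a window. Each is given 5′ to 3′ on the strand of its gene. Capitals mark letters of the interferon-stimulated response element (GAAANNGAAA, read by interferon regulatory factors), of AP-1 (TGANTCA, read by Fos and Jun proteins) and of the TATA box (TATAAA), searched on both strands. The window of Bdkrb2, the member with the largest rise, lies at chr12:105562922-105563221 on the + strand, and that of Ackr4, with the largest fall, at chr9:104126594-104126893 on the - strand. Htr2b (at chr1:86111931-86112230, - strand), Gpr35 (at chr1:92978653-92978952, + strand) and P2ry14 (at chr3:59153443-59153742, - strand) rose and hold AP-1 letters, and Gpr19 (at chr6:134887812-134888111, - strand) was the member past 2-fold whose window holds the interferon element.
Bdkrb2: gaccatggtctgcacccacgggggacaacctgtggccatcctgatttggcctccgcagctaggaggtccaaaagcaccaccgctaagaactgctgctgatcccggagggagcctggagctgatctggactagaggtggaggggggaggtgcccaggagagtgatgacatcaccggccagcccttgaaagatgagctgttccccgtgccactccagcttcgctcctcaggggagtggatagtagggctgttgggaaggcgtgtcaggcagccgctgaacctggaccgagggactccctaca
Ackr4: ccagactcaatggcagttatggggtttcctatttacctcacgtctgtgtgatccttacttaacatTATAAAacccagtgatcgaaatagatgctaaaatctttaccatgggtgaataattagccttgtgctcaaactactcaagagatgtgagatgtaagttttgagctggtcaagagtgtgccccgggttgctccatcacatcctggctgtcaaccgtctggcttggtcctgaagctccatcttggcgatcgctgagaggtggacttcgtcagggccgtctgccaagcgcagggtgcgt
Htr2b: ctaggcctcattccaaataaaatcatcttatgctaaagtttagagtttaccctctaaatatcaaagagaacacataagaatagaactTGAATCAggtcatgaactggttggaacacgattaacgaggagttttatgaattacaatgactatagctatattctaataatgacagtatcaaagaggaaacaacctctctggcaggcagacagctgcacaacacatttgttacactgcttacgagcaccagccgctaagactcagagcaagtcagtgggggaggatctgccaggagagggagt
Gpr35: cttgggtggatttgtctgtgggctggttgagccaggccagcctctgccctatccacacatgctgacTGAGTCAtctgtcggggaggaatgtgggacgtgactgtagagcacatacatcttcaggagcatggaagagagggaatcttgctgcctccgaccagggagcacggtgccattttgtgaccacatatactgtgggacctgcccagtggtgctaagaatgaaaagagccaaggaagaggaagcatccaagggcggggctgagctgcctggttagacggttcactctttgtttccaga
P2ry14: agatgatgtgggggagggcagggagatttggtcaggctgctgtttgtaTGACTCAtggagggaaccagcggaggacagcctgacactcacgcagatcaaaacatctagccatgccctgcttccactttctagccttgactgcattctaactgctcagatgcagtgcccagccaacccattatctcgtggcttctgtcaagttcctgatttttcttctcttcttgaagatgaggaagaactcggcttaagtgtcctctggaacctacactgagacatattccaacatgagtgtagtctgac
Gpr19: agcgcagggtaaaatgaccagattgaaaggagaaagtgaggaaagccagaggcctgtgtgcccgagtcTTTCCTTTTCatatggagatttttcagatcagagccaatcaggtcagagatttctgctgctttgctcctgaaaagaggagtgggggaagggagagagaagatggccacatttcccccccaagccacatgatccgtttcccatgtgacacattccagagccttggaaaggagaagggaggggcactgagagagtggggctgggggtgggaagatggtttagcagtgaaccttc

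The interferon element began 182 bases before the start site in the Gpr19 window and lay on the opposite strand. It was in 4.55% of the 154 windows of members and in 3.44% of all 32851 windows. AP-1 letters, which read the same on both strands, were in 13.0% of the windows of members against 7.81% of all. The next counts take members past 2-fold that had a window and were past the line of the filter on low counts in at least 1 library of each group. At least 1 window held AP-1 letters for 4 of 13 that were higher and 0 of 5 that were lower, against 8.97% of all genes in the table of windows. Members with several windows, such as P2ry14, P2ry10b and Gpr35, had more letters searched than a gene with 1. The share over all genes does not allow for this. TATAAA was in a window of 3 of 13 that were higher and of 4 of 5 that were lower, against 15.7% of all genes, and 2 of these 4, Lpar4 and Gpr65, were no longer past both lines without OEIRF7 replicate 3. Counted from the start site, the letters began at -185 in Ackr4, -218 in Gpr141 and, on the opposite strand, at -203 in Lpar4 and -175 in Gpr65. In the higher members they began at -8 in Ackr3, at -118 on the opposite strand in P2ry14, and at -222 and -220 in P2ry10b. The cAMP response element TGACGTCA was in 0.649% of the windows of members and 1.79% of all, and the SMAD letters GTCTAGAC were in 0 of them and 0.213% of all. A match describes letters and not a bound site.

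Most receptor genes were low in these cells. Of the 160 members, 71 reached a mean of 1 CPM, 51 reached 1 FPKM and 13 reached 10 FPKM, and the median of the tested members was 5.01 CPM against 22.2 CPM for all tested genes. Enough reads for a test were found for 90 members. Of these, 33 rose and 28 fell in the libraries labelled OEIRF7 at an adjusted p below 0.05 in edgeR's quasi-likelihood test, and 29 did not pass. That is 67.8% of the tested members, where 58.9% of all 13533 tested genes passed (29.0% higher and 29.9% lower), and the counts by receptor class below stand against these shares. With a change of more than 2-fold added, 18 members rose and 7 fell, 27.8% of those tested, where 8.56% of all genes did (4.66% higher and 3.89% lower). The CPM of the groups did not overlap for 34 members that were higher and 25 that were lower under OEIRF7, against 26.8% and 27.0% of all genes. Among the 70 untested members 6 did not overlap, against 6.76% of the 4925 untested genes with reads. The median size of the log2 fold change was 0.59 in members and 0.25 in all genes, with median signed values of 0.09 and 0.00. Without OEIRF7 replicate 3, 21 members rose and 7 fell past 2-fold.

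These counts rest on the members that passed the filter on low counts, and Adgrf4 and Gpr84 passed it through the libraries labelled OEIRF7 alone, where they were high. Without this pair, 31 members rose and 28 fell, 16 and 7 of them past 2-fold. Members such as Bdkrb2 and Adra1d, with part of the libraries of their lower group past the line, stay in these counts. They too reached the number of libraries asked for only with the group in which they were high. How many more did so was not counted. Because the libraries are bulk RNA, fewer cells of a type and less RNA per cell cannot be told apart. The strand setting of the read counting is not given in the sources used here, and 34 members overlap a counted gene on the opposite strand. The plot of tested members by role shows how the changes spread over the receptor classes.

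**Figure D1:**
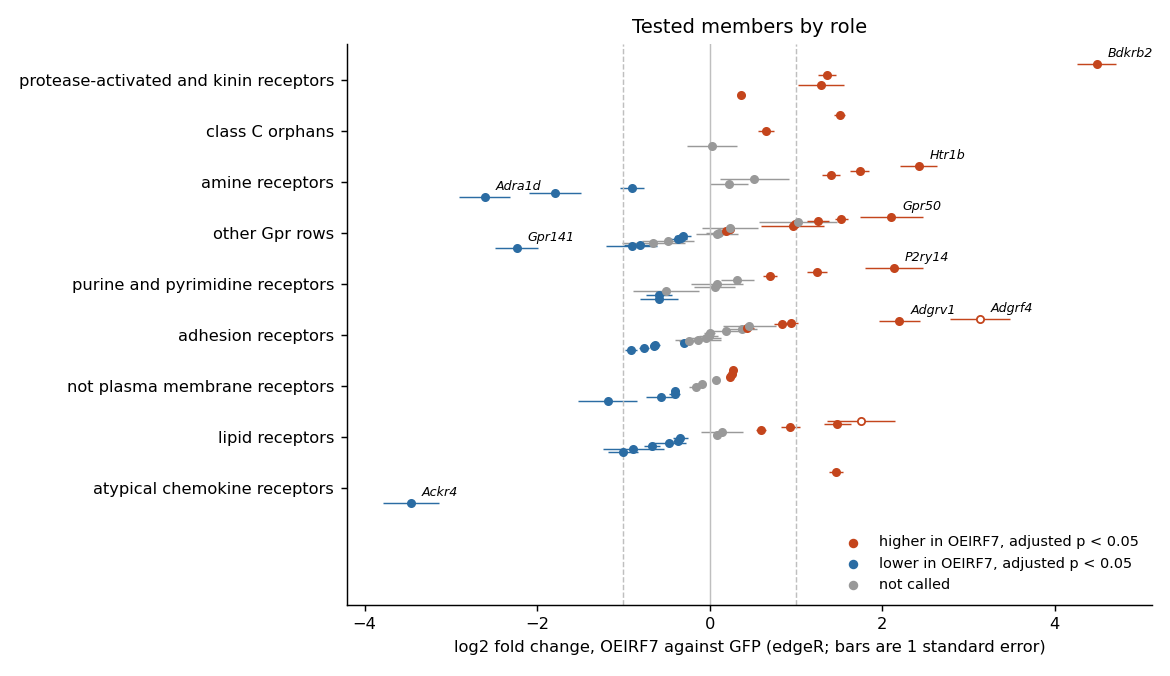
Log2 fold change of 86 tested members (x axis, libraries labelled OEIRF7 against GFP, bars are 1 standard error) in 9 role groups (y axis), with red for higher, blue for lower and grey for not past an adjusted p of 0.05, and open circles for Adgrf4 and Gpr84. All 4 tested protease-activated and kinin receptors lie right of 0 with Bdkrb2 at 4.49, and Ackr4 lies farthest left at -3.46.

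Of the receptors for kinins and proteases, 4 of 4 tested members were higher, where 29.0% of all tested genes were. Bdkrb2 (chr12:105563226-105595237), the constitutive bradykinin receptor, had 8, 6, 11 and 5 reads in GFP libraries 1 to 4, or 0.299, 0.240, 0.446 and 0.191 CPM. In the libraries labelled OEIRF7 it had 153, 222, 188 and 138 reads, or 5.93, 7.65, 7.38 and 5.60 CPM. It was therefore barely detected in all controls and present in every other library, a 22.4-fold difference (log2 4.49, SE 0.22, adjusted p = 4.60e-10). Bdkrb2 passed the filter on low counts only with the libraries in which it was high, which limits this test. Its inducible partner Bdkrb1 had too few reads for the test, 7 in all GFP libraries and 25 in those labelled OEIRF7.

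F2r (chr13:95601803-95618487), the thrombin receptor PAR1, was the most abundant member. Its FPKM was 125, 124, 125 and 130 in the GFP libraries and 170, 174, 145 and 170 in those labelled OEIRF7, and the groups did not overlap. The log2 fold change was 0.36 (SE 0.05, adjusted p = 1.02e-05), a difference of 1.28-fold on an already high level. F2rl1, its neighbour on chr13 at 95511732-95525227, encodes the trypsin-activated receptor PAR2 and was at 9.96, 8.01, 8.83 and 7.59 CPM in the GFP libraries against 21.8, 19.2, 26.0 and 21.2 CPM. It rose by 1.36 on the log2 scale (SE 0.10, adjusted p = 3.83e-08). F2rl3 (PAR4) rose from a mean of 0.512 to 1.26 CPM, and F2rl2, with 21 reads against 62, was not tested. F2r made up 97.3% of the summed FPKM of the protease-activated receptors in the GFP libraries and 94.7% under OEIRF7, and that sum rose from 130 ± 2.53 to 174 ± 12.5 FPKM (SD, n = 4).

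Among receptors for amines, all 3 tested serotonin receptors rose and 3 of 5 tested adrenergic receptors fell. Htr2a (chr14:74640840-74709494), which couples to Gq and phospholipase C, was at 7.46, 9.25, 10.3 and 11.2 CPM in the GFP libraries and at 29.9, 33.0, 35.8 and 28.4 CPM in those labelled OEIRF7 (log2 1.74, SE 0.11, adjusted p = 3.60e-09). Htr2b (chr1:86099026-86111970), also coupled to Gq and known from heart valve fibrosis, was at 5.26, 4.81, 5.96 and 5.61 CPM against 12.4, 15.0, 16.5 and 13.4 CPM (log2 1.41, SE 0.10, adjusted p = 2.82e-08). Htr1b (chr9:81628291-81633828), which couples to Gi, was at 1.46, 1.68, 1.66 and 1.56 CPM against 7.95, 6.27, 12.8 and 7.14 CPM (log2 2.42, SE 0.22, adjusted p = 2.48e-07). In none of these receptors did the groups overlap, and OEIRF7 replicate 3 had the highest level of each. Their family sum was 5.04 ± 0.39 FPKM in the GFP libraries and 15.8 ± 1.51 FPKM under OEIRF7 (SD, n = 4). Htr2b overlaps Psmd1 on the opposite strand, whose log2 fold change was 0.11.

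Adra1d (chr2:131545850-131562283), an alpha adrenergic receptor that couples to Gq, was at 3.40, 2.24, 3.16 and 2.29 CPM in the GFP libraries and at 0.233, 0.310, 0.510 and 0.770 CPM in those labelled OEIRF7. Its log2 fold change was -2.61 (SE 0.30, adjusted p = 3.17e-06). Adra1b of the same class fell by 0.90 on the log2 scale (SE 0.14, adjusted p = 4.86e-05), and Adrb3, known from fat cells, by 1.80 (SE 0.30, adjusted p = 0.000126). Adrb1, the main beta receptor of heart muscle, had 7 reads in all libraries together. Summed over the family, adrenergic receptors were at 5.63 ± 0.30 FPKM in the GFP libraries and 3.23 ± 0.43 FPKM under OEIRF7, and Adra1d alone went from 25.5% to 7.29% of that sum. Of the muscarinic receptors only Chrm3 had enough reads for the test, which it did not pass, and Chrm1 had 4 reads in the GFP libraries and 34 in the others.

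**Figure D2:**
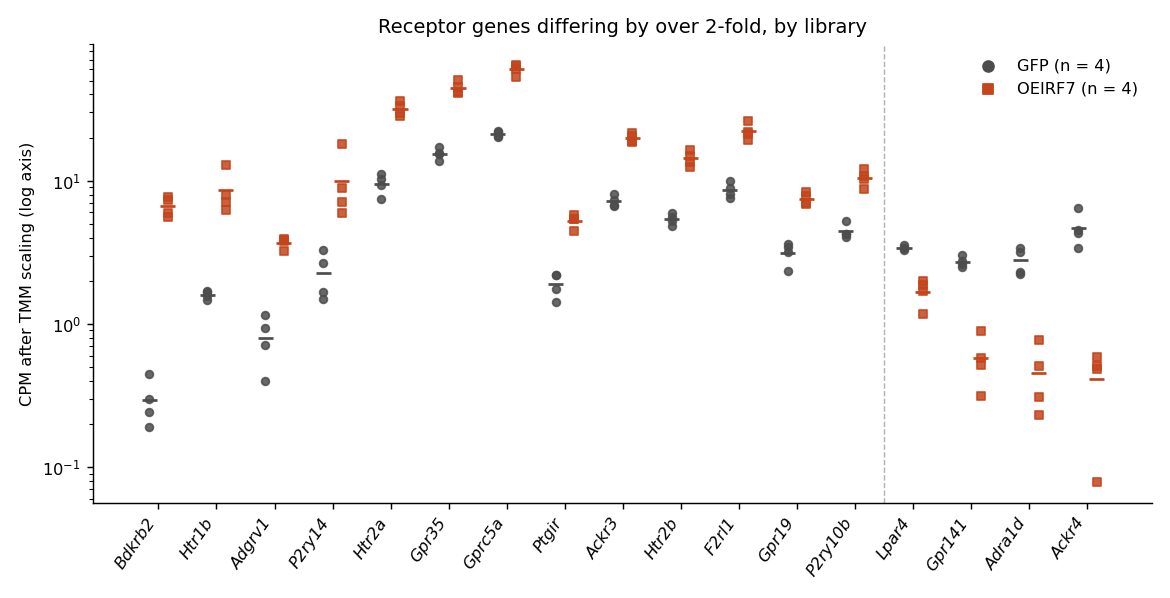
CPM after TMM scaling (y axis, log scale) in each library for 17 members with a mean of at least 1 CPM, a change past 2-fold and no overlap between the groups (x axis), GFP as grey circles, libraries labelled OEIRF7 as red squares, and lines at the means of n = 4. The 13 members left of the dashed line were higher and the 4 on its right were lower under OEIRF7, with Bdkrb2 and Ackr4 at the ends.

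The atypical chemokine receptors bind chemokines without G protein signalling and remove them, and the 2 that were tested went opposite ways. Ackr3 (chr1:90203980-90216751), which takes up CXCL12, was at 6.68, 8.05, 7.37 and 6.71 CPM in the GFP libraries and at 20.5, 19.0, 18.6 and 21.4 CPM in those labelled OEIRF7 (log2 1.46, SE 0.08, adjusted p = 1.24e-09). Ackr4 (chr9:104084157-104126933), which takes up CCL19 and CCL21, had 122, 160, 106 and 89 reads against 13, 17, 2 and 12 reads. It was the member with the largest fall, an 11.0-fold difference (log2 -3.46, SE 0.32, adjusted p = 3.54e-07), and without OEIRF7 replicate 3, the library with 2 reads, its log2 fold change was -3.13. Acad11, which overlaps Ackr4 on the opposite strand, was at 51.8 and 49.1 CPM. Ackr4 made up 43.6% of the summed FPKM of the atypical receptors in the GFP libraries and 3.45% under OEIRF7, and Ackr3 went from 54.3% to 94.0%.

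Of the lipid receptors, 4 of 12 tested members were higher, Gpr84 among them, and 6 lower, against 29.0% and 29.9% of all tested genes. Ptgir (chr7:16906490-16910905), the prostacyclin receptor that raises cAMP through Gs, was at 1.42, 2.20, 2.19 and 1.75 CPM in the GFP libraries and at 5.39, 5.79, 4.44 and 5.39 CPM in those labelled OEIRF7 (log2 1.48, SE 0.16, adjusted p = 1.51e-06). Lpar4 (chrX:106920625-106933900), a receptor for lysophosphatidic acid, was at 3.55, 3.37, 3.36 and 3.28 CPM against 1.98, 1.86, 1.18 and 1.70 CPM (log2 -1.01, SE 0.17, adjusted p = 0.000149). Its log2 fold change was inside the 2-fold line without GFP replicate 1 (-0.99) or OEIRF7 replicate 3 (-0.87). Lpar2 and Lpar6, which answer the same ligand, fell by 0.67 (SE 0.09) and 0.34 (SE 0.09). Lpar3 had 45 reads against 5 and Lpar5 had 20 against 5, too few for the test.

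The dominant receptor for lysophosphatidic acid was Lpar1, with 85.8% of the family's FPKM in the GFP libraries and 90.9% under OEIRF7. It was at 131, 126, 133 and 123 CPM in the GFP libraries and at 137, 136, 147 and 124 CPM in the others, and the groups overlapped (log2 0.09, SE 0.05, adjusted p = 0.129). On the deposited FPKM its groups did not overlap, at 36.3 to 43.9 against 44.8 to 45.9, and limma on log2(FPKM + 1) gave an adjusted p of 0.0289. The whole family summed to 47.6 ± 2.99 FPKM in the GFP libraries and 49.9 ± 0.62 FPKM under OEIRF7 (SD, n = 4), with overlap.

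For sphingosine phosphate, S1pr1 and S1pr3 rose and S1pr2 fell. S1pr1, which couples to Gi, was at 14.4, 13.8, 14.7 and 13.5 CPM in the GFP libraries and at 20.5, 22.2, 21.3 and 21.1 CPM in those labelled OEIRF7 (log2 0.59, SE 0.06, adjusted p = 7.47e-07). S1pr2, which is known for its coupling to RhoA, was at 40.0, 37.5, 35.3 and 37.3 CPM against 31.3, 28.9, 28.2 and 28.1 CPM (log2 -0.37, SE 0.05, adjusted p = 3.69e-05). S1pr3 rose by 0.93 (SE 0.11, adjusted p = 3.70e-06). On the FPKM scale the order of the leading receptors was reversed, S1pr2 holding 51.9% and S1pr1 39.5% of the family in the GFP libraries and 34.9% and 52.5% under OEIRF7. The cannabinoid receptor Cnr1 and the receptor Gpr17 passed narrowly, with adjusted p-values of 0.0437 and 0.0440, and lost the call when single libraries were left out.

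**Figure D3:**
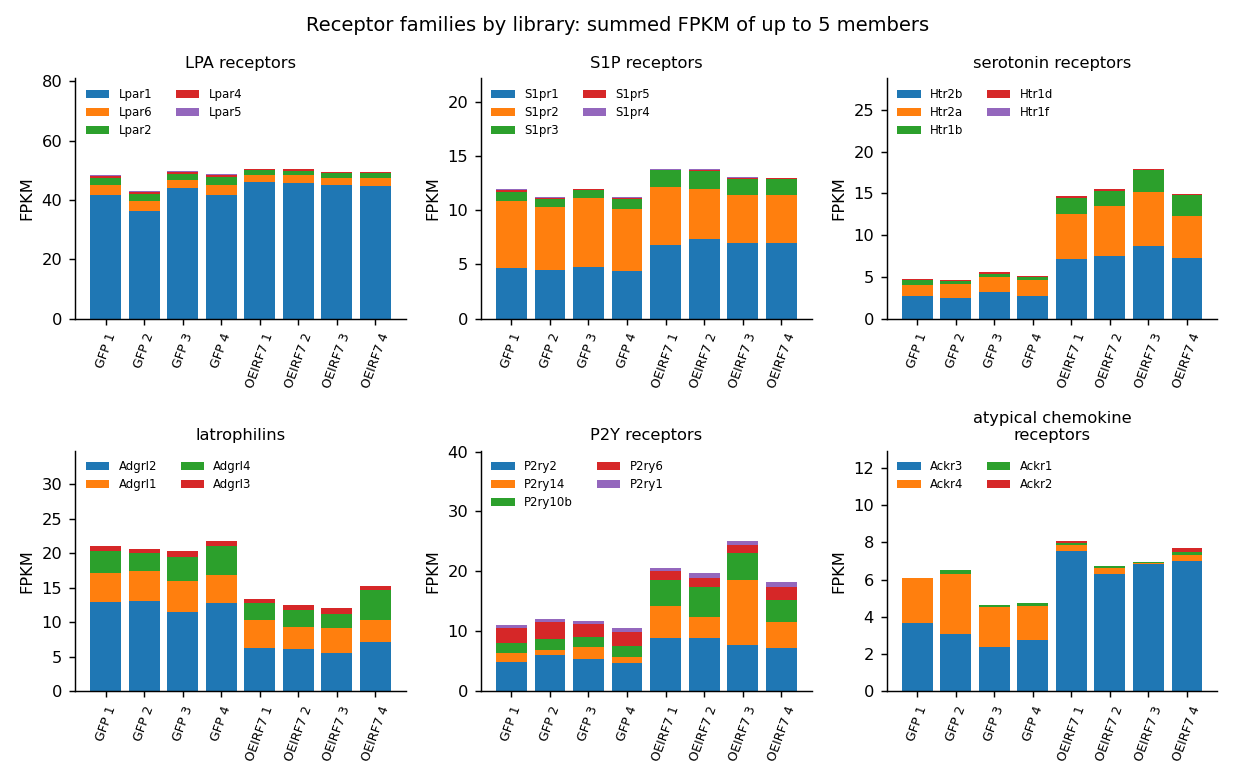
Summed deposited FPKM (y axis) in each of the 8 libraries (x axis) for 6 receptor families, stacked by the up to 5 members with the highest mean. The serotonin and P2Y bars are higher and the latrophilin bars lower in the 4 libraries labelled OEIRF7, and Ackr4 shrinks beside a growing Ackr3. The lysophosphatidic acid bars differ little apart from a lower GFP replicate 2. With Lpar3, which is not drawn, that family summed to 48.6 to 50.6 FPKM, and to 43.2 FPKM in GFP replicate 2.

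Among receptors named for purines and pyrimidines, 3 of 9 tested members rose and 2 fell. P2ry2, which binds ATP and UTP, was the most abundant of them, at 12.2, 14.9, 13.8 and 11.8 CPM in the GFP libraries and 22.3, 22.7, 20.5 and 19.99 CPM in those labelled OEIRF7 (log2 0.70, SE 0.08, adjusted p = 2.50e-06). P2ry14 (chr3:59113855-59153618), the receptor for UDP-glucose, was at 2.65, 1.48, 3.28 and 1.68 CPM against 8.84, 5.96, 18.1 and 7.10 CPM. It rose by 2.13 on the log2 scale (SE 0.34, adjusted p = 7.20e-05), and by 1.68 without OEIRF7 replicate 3, which stood highest. P2ry10b (chrX:107148927-107173661), a paralog of the lysophosphatidylserine receptor P2ry10, was at 4.03, 4.25, 5.23 and 4.23 CPM against 10.8, 10.2, 12.1 and 8.72 CPM (log2 1.24, SE 0.12, adjusted p = 4.05e-07). P2ry6, a receptor for UDP, fell by 0.59 (SE 0.15, adjusted p = 0.00374) with groups that overlapped. Adora2b, the adenosine receptor of low affinity, fell by 0.59 (SE 0.22, adjusted p = 0.0314), a call that was lost when any of 6 libraries was left out.

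Gpr65, known from lymphocytes and macrophages, fell from a mean of 0.552 CPM in the GFP libraries to 0.231 CPM in those labelled OEIRF7 (adjusted p = 0.0370), a call lost when any of 4 libraries was left out. Gpr4 was at 1.19, 0.561, 0.891 and 1.37 CPM against 1.55, 1.24, 1.57 and 1.38 CPM and did not pass. Gpr132 had 2 reads in the GFP libraries and 25 in the others.

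Of the class C orphans, Gprc5a (chr6:135065651-135084709), a receptor induced by retinoic acid in epithelia, was at 22.2, 20.6, 20.3 and 21.9 CPM in the GFP libraries and at 53.3, 63.5, 64.4 and 60.5 CPM in those labelled OEIRF7. This difference of 1.51 on the log2 scale (SE 0.06, adjusted p = 8.07e-11) was 2.84-fold. Its relative Gprc5b was the most abundant of the class at 23.6 ± 3.24 FPKM in the GFP libraries and 37.8 ± 5.08 FPKM in the others (SD, n = 4), and rose by 0.65 (SE 0.09, adjusted p = 3.30e-05). Together the Gprc5 genes went from 33.8 ± 3.12 to 67.2 ± 6.15 FPKM.

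Of the other orphans and deorphanised Gpr genes, 7 of 19 tested members rose and 6 fell. Gpr35 (chr1:92950865-92986391), for which kynurenic acid has been put forward as a ligand, was at 15.3, 13.7, 17.1 and 15.7 CPM in the GFP libraries and at 40.8, 41.8, 50.5 and 44.9 CPM in those labelled OEIRF7 (log2 1.53, SE 0.08, adjusted p = 6.48e-10). Gpr19 (chr6:134869093-134898578), an orphan, was at 3.17, 3.61, 2.35 and 3.43 CPM against 8.33, 7.76, 7.03 and 6.89 CPM (log2 1.25, SE 0.13, adjusted p = 1.22e-06). Gpr141 (chr13:19749682-19824257), an orphan known from myeloid cells, went the other way, from 2.50, 2.60, 2.75 and 3.01 CPM to 0.581, 0.517, 0.314 and 0.892 CPM (log2 -2.24, SE 0.25, adjusted p = 2.17e-06). Gpr153, a further orphan, rose by 0.98 (SE 0.06, adjusted p = 3.02e-09) and stayed just under the 2-fold line.

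Gpr39 (chr1:125676995-125873862), a receptor activated by zinc, was next to F2r in level among all members. Its FPKM was 58.1, 55.9, 55.9 and 57.0 in the GFP libraries and 66.2, 68.0, 69.2 and 67.6 in those labelled OEIRF7. The groups did not overlap, with a log2 fold change of 0.23 (SE 0.03, adjusted p = 2.42e-05).

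**Figure D4:**
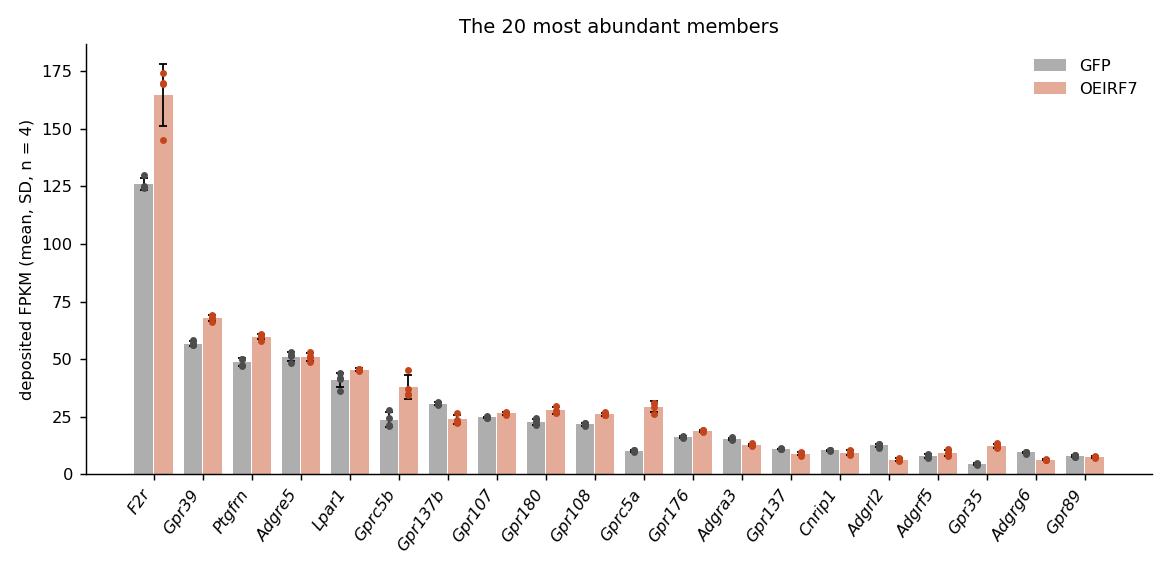
Deposited FPKM (y axis, bars are means, error bars SD, points the 4 libraries of each group) of the 20 members with the highest mean (x axis), GFP in grey and the libraries labelled OEIRF7 in red. F2r stands above all others at 126 and 165 FPKM, and Gprc5a, Gpr35 and Adgrl2 show the widest relative gaps.

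Adhesion receptors, which carry long extracellular regions that bind matrix and neighbouring cells, had 5 of 19 tested members higher, Adgrf4 among them, and 5 lower. Both shares are near the 29.0% and 29.9% of all tested genes. Adgrv1 (chr13:81095068-81633154), the very large adhesion receptor known from the inner ear, was at 0.709, 0.401, 0.932 and 1.14 CPM in the GFP libraries and at 3.84, 3.89, 3.22 and 3.77 CPM in those labelled OEIRF7 (log2 2.20, SE 0.23, adjusted p = 1.31e-06). Adgrg2 rose by 0.95 (SE 0.07, adjusted p = 4.88e-08). The latrophilin Adgrl2 was at 53.9, 52.6, 49.3 and 54.4 CPM in the GFP libraries against 28.5, 29.2, 23.0 and 30.5 CPM (log2 -0.92, SE 0.07, adjusted p = 4.71e-08), and Adgrg6, which binds basement membrane proteins, fell by 0.65 (SE 0.05, adjusted p = 1.80e-08). The summed FPKM of the latrophilin group went from 20.9 ± 0.63 to 13.3 ± 1.39 FPKM (SD, n = 4). Adgre5 (CD97), the most abundant adhesion receptor, was at 51.1 ± 2.04 and 50.8 ± 1.89 FPKM, a log2 fold change of -0.01 (SE 0.04, adjusted p = 0.857).

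Some members are best known from macrophages and other leukocytes. Adgre1, which encodes a defining surface protein of mouse macrophages, rose by 0.44 (SE 0.08, adjusted p = 0.000342), a call that limma on FPKM did not make. Beside it, 6 of 12 macrophage markers rose, 3 of them past 2-fold, and 1 fell, also past 2-fold. The marker counts given here stand against 29.0% higher and 29.9% lower of all tested genes. The summed FPKM of the macrophage markers was 218 to 257 in the GFP libraries and 269 to 308 in those labelled OEIRF7, with no marker at 0 in all libraries. Csf1r, the receptor for the macrophage growth factor, was at 8.31 and 7.94 FPKM and did not pass (adjusted p = 0.542). Gpr84, which passed the filter through the libraries labelled OEIRF7 alone, had 7, 3, 5 and 8 reads in the GFP libraries and 17, 35, 13 and 16 in the others. P2ry14 and Gpr35 rose as given above, while Gpr141, Gpr65 and P2ry6 fell. Endothelial markers summed to 79.0 to 82.3 FPKM against 83.9 to 91.0 FPKM, with 4 of 9 higher and 1 lower. Markers of mural cells, the pericytes and smooth muscle cells of vessel walls, summed to 27.4 to 30.2 FPKM against 19.4 to 22.6 FPKM, with 2 of 5 tested higher (Cspg4 and Des) and 2 lower (Mcam and Notch3). The part of other cell types in the receptor values was not tested.

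All 10 rows that are not plasma membrane receptors were tested. Ptgfrn, which encodes a regulator of the prostaglandin F receptor, was at 48.6 ± 1.67 FPKM in the GFP libraries and 59.8 ± 1.24 FPKM in those labelled OEIRF7 (SD, n = 4; log2 0.27, SE 0.03, adjusted p = 5.16e-06). The receptor itself, Ptgfr, had 21 reads in all libraries. Gpr137b, a lysosomal protein, fell by 0.41 (SE 0.05, adjusted p = 3.70e-06), and Gpr137c, with few reads and groups that overlapped, by 1.18 (SE 0.34) and by 0.98 without GFP replicate 4. In this group 3 rows rose and 4 fell, and without them 30 receptors rose and 24 fell.

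Members with under 1 CPM on average or with overlapping groups made up the rest of the changes past 2-fold. Adgrf4 had 5, 3, 4 and 3 reads in the GFP libraries and 22, 37, 41 and 38 in those labelled OEIRF7, and no test is given because only the latter passed the filter. Gpr50, an orphan related to melatonin receptors, rose by 2.11 (SE 0.36, adjusted p = 0.000160). A member under 1 CPM can pass the filter through the group in which it is high, which limits such a test. Some members were also grouped by the G protein they are known for, in lists of 16 (Gq), 17 (Gi) and 7 (Gs). These lists are partial, and F2r and Gpr39, which were both higher, are in none of them. In these lists, 4 of 9 tested Gq-coupled members rose and 3 fell, and 3 of 8 tested Gi-coupled members rose and 1 fell. Of 6 tested Gs-coupled members 1 rose and 2 fell.

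Of the enzymes that make or break the ligands of these receptors, 13 of 24 tested genes were higher and 7 lower, against 29.0% and 29.9% of all tested genes. Ptgs2, the inducible cyclooxygenase, was at 147, 110, 193 and 170 CPM in the GFP libraries and at 815, 777, 1706 and 797 CPM in those labelled OEIRF7 (log2 2.73, SE 0.24, adjusted p = 1.63e-07). Ptgs1 rose by 1.55 (SE 0.09, adjusted p = 1.69e-09) and Ptgis, the prostacyclin synthase, by 0.36 (SE 0.03, adjusted p = 2.13e-07), in the same libraries in which the prostacyclin receptor Ptgir was higher. Enpp2 (autotaxin), which makes lysophosphatidic acid, was at 2.39, 1.80, 2.35 and 1.41 CPM against 6.75, 7.07, 11.1 and 7.18 CPM (log2 2.01, SE 0.20, adjusted p = 5.43e-07). The sphingosine kinase Sphk1 rose by 0.82 (SE 0.07), and the phosphatase Sgpp1, which acts against it, fell by 0.80 (SE 0.05). Nt5e, which makes adenosine outside the cell, rose by 0.85 (SE 0.13), and Ada, which degrades it, fell by 0.75 (SE 0.08).

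Downstream of the receptors, 9 of 14 tested RGS genes rose and none fell, against 29.0% and 29.9% of all tested genes. Rgs16 was at 7.95, 8.33, 8.79 and 8.28 CPM in the GFP libraries and at 27.0, 27.3, 39.9 and 24.5 CPM in those labelled OEIRF7 (log2 1.83, SE 0.13, adjusted p = 2.18e-08), and Rgs9 rose by 1.16 (SE 0.22, adjusted p = 0.000395). Of 25 tested G protein subunits 7 rose and 11 fell. Gna12, the alpha subunit that signals to RhoGEFs, was at 135, 128, 136 and 130 CPM against 56.6, 56.0, 60.6 and 62.2 CPM (log2 -1.17, SE 0.04, adjusted p = 2.33e-11), and the gamma subunit Gng11 rose by 1.22 (SE 0.06, adjusted p = 1.99e-10). Gng8 and Gng7, further gamma subunits, fell by 1.48 (SE 0.16) and 1.13 (SE 0.22).

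Effector genes moved in both directions, and the counts given here stand against 29.0% higher and 29.9% lower of all tested genes. Of 8 phospholipase C beta and RhoGEF genes 2 rose and 5 fell, with Plcb4 at 60.0, 56.6, 54.7 and 61.5 CPM in the GFP libraries and 21.8, 25.3, 24.7 and 25.1 CPM in those labelled OEIRF7 (log2 -1.26, SE 0.06, adjusted p = 1.68e-10). Of 19 tested adenylyl cyclases and cAMP phosphodiesterases 4 rose and 9 fell, Adcy1 by 1.59 (SE 0.16, adjusted p = 5.84e-07) and Pde7b by 1.04 (SE 0.12, adjusted p = 4.88e-06), while Pde8b rose by 1.26 (SE 0.29, adjusted p = 0.00191). Of 11 tested receptor kinases and arrestins 1 rose and 4 fell, and Grk4 fell by 1.06 (SE 0.16, adjusted p = 5.67e-05), a call that limma on FPKM did not make.

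**Figure D5:**
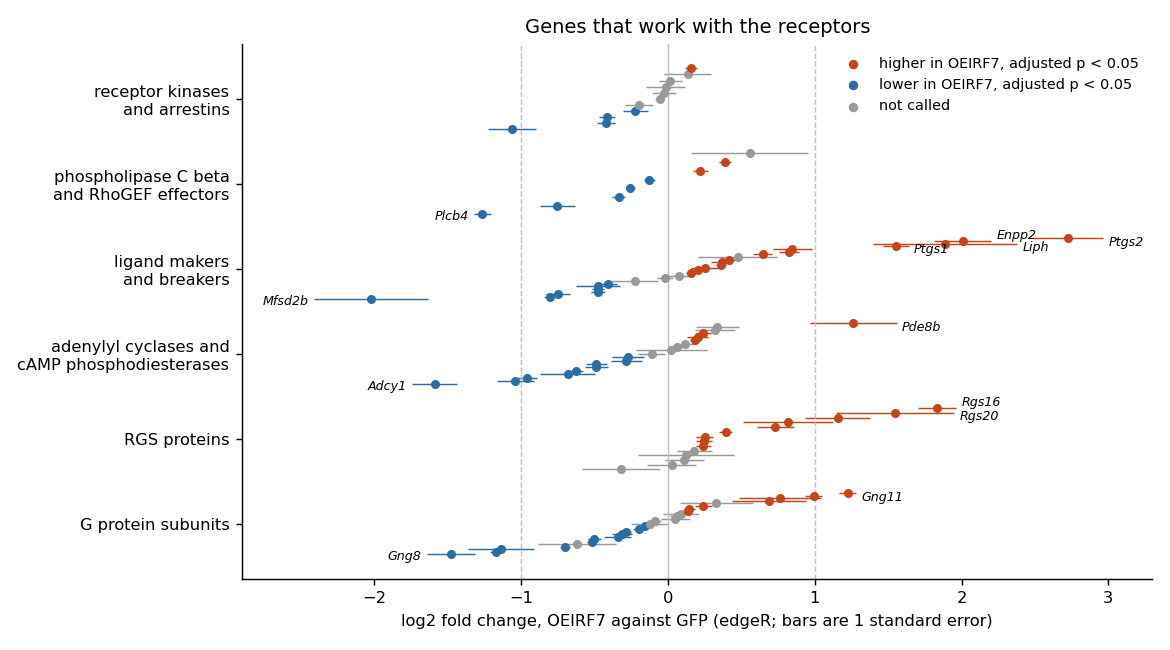
Log2 fold change (x axis, libraries labelled OEIRF7 against GFP, bars are 1 standard error) of the tested genes of 6 lists that work with the receptors (y axis), coloured as in the plot by role. No RGS gene is blue, and Ptgs2 at 2.73 lies farthest right.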

How the data were processed

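RNA of 4 libraries labelled GFP and 4 labelled OEIRF7 was sequenced. Per the paper's methods, the authors used Trimmomatic for trimming and HISAT2 for alignment to mouse GRCm38, and deposited raw read counts per gene from HTSeq-count, together with FPKM from Cufflinks, which are scaled for gene length and depth. Tool versions and the strand setting are not given in the sources used here, and the labels and the paper name different extraction and library kits. Columns with the authors' own fold change, p-value, FDR and group means were not used.

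The test on counts was that of edgeR 4.0.16 in R 4.3.3 (filterByExpr, TMM scaling, glmQLFit and glmQLFTest without covariates) over all 13533 genes that passed the filter, which asks for 0.393 CPM in at least 4 libraries, with Benjamini-Hochberg adjustment over these genes. CPM were scaled by TMM (factors 0.989 to 1.01). Log2 CPM used a prior count of 2. FPKM served for levels between genes. All groups came from the sample titles. The highest total of an untested member was 83 reads and the lowest of a tested one 81, and genes under 1 CPM rest on few reads. In the table, 121 symbols that hold GFP, of which 0 were members, were restored by identifier. Gene coordinates came from GENCODE M21 on GRCm38, which held 167 of the 168 rows, and the start-site windows from RefSeq.

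Members named in the text had an adjusted p below 0.05, a change past 2-fold, a mean of at least 1 CPM and no overlap between groups, or were among the 5 highest in FPKM or the highest of their role. Partner genes were named by the same lines, up to 4 a list. Values of 3 members are not reported here, though all counts include them. Other genes stand for their family or list and were picked with their values in view. The members and lists were chosen with earlier results of these data known.

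Alternatives were DESeq2 1.42.0, no scaling, upper-quartile and median-of-ratios scaling, at least 1 count in total, at least 10 counts per library, a block for the replicate number, omission of each library, limma 3.58.1 on log2(FPKM + 1) and log2(FPKM + 0.1), and receptors only. The edgeR, DESeq2 and limma fits were first tested on simulated counts.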

Additional observations from a re-analysis of the deposited data

Results flagged for a closer look

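In 10 of 210 groups of 4 libraries, over 105 members and partner genes, the highest or lowest library stood apart from the other 3 by a gap wider than Dixon's critical share of the group's range. Chance gives about 1 in 20 such groups. In OEIRF7 replicate 3 this held for Ptgs2 (1706 CPM, the others at 777 to 815 CPM) and Enpp2 (11.1 CPM), both high, and for Gpr153 (30.7 CPM), Gpr89 (32.5 CPM), Lpar6 (11.98 CPM) and Gng8 (1.22 CPM), all low. The same library was highest for P2ry14, Htr1b and Rgs16 without crossing that line. The remaining cases were Gpr157 in OEIRF7 replicate 4 (3.16 CPM), P2ry12 in OEIRF7 replicate 2 (0.345 CPM), Adgrd1 in GFP replicate 3 (1.38 CPM) and Gpr162 in GFP replicate 4 (0.610 CPM), all low and none of them genes that passed the test. Of the tested genes of the series, 2.38% had OEIRF7 replicate 3 apart in this way, against 0.791% to 1.71% for the other libraries. A cause was not tested.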

How the results depend on the processing

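No member called in the test changed its sign under any alternative run, and of 716 alternative values of 40 named genes 703 kept direction and side of the threshold. Past 2-fold, 10 members rose and 1 fell with limma on log2(FPKM + 1), under both filters, where the pseudocount shrinks low genes, and 2 fell with at least 10 counts in every library, which tested 74 members. DESeq2 called 23 higher and 8 lower past 2-fold. Leaving out single libraries gave 32 to 35 higher and 25 to 26 lower members, and 18 to 21 higher and 6 to 8 lower past 2-fold. Adora2b, Cnr1, Gpr17, Gpr37l1 and Gpr65 lost their call in at least 4 of these 8 fits. The log2 fold change of Adgre5, near 0, turned positive without scaling (0.019) and ranged from -0.026 to 0.0082 when single libraries were left out, above 0 without GFP replicate 1, GFP replicate 3 or OEIRF7 replicate 2. Lpar1 passed the threshold in 6 alternatives and Grk4 and Adgre1 lost it in 3 fits of limma; the cause was not tested. The labels share replicate numbers, and deviations of libraries with the same number correlated at 0.079 to 0.138, against -0.158 to 0.0476 for the other combinations. The sources used here do not state pairs, and the main test took none. With the replicate number as a block, 34 members rose and 27 fell, 18 and 7 of them past 2-fold, Cnr1 lost its call and Lpar1 gained one. Each library labelled OEIRF7 correlated best with the GFP library of its own number, a hint from the data and not from the design. With a minimum of 1 count in total, 7 members without a test in edgeR's default filter passed, Adra1a, Chrm1, F2rl2, Gpr132 and Gpr83 higher and Gprc6a and Lpar3 lower. Depth limits what can be said of the 70 untested members.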

Other observations

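Of the 70 members with too few reads for the test, 6 (8.57%) had CPM that did not overlap between the groups, where 6.76% of all untested genes with reads did not. Gpr132 had 0, 1, 0 and 1 reads in GFP libraries 1 to 4 and 2, 11, 3 and 9 reads in those labelled OEIRF7. Chrm1, a muscarinic receptor, had 3, 0, 0 and 1 reads against 5, 12, 8 and 9 reads. F2rl2, the protease-activated receptor PAR3, had 5, 5, 5 and 6 reads against 15, 28, 9 and 10 reads, and Lpar3 went the other way with 10, 19, 7 and 9 reads against 3, 0, 1 and 1. In the remaining 2, the groups shared a read count and were apart only after scaling. Bdkrb1 had 1, 0, 4 and 2 reads against 6, 6, 9 and 4 and Lpar5 had 4, 2, 7 and 7 against 2, 1, 1 and 1, and with a minimum of 1 count in total edgeR gave them adjusted p-values of 0.0777 and 0.0563. These members were chosen after their values were seen.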
